A study of Caenorhabditis elegans with 2 samples.

Results

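The 7 fatty acid desaturase genes of Caenorhabditis elegans, fat-1 to fat-7, were examined for regions bound in chromatin immunoprecipitation sequencing (ChIP-seq) of the zinc finger protein TLP-1 in first-stage (L1) larvae. They were 7 of 19985 protein-coding genes of the annotation, taken as 1 gene family and chosen by measured values, since they were picked with earlier results of these region lists known, signal and rank included. Whole L1 larvae of mixed sex of strain OP321 were used, which carries the mutation unc-119(tm4063) on chromosome III and the insertion wgIs321 with tlp-1 tagged with eGFP. Both libraries belonged to this 1 group of 2 biological replicates, so that no treatment, genotype or stage was compared, and a peak from whole animals does not show in which cells the protein sat. The age within L1 was labelled unknown, and no region is a measure of expression.

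Fatty acid desaturases place double bonds into the acyl chains of lipids, and the worm makes its polyunsaturated fatty acids from saturated ones through a chain of such enzymes. The gene fat-5 encodes a palmitoyl-CoA desaturase, and fat-6 and fat-7 encode the stearoyl-CoA desaturases that make oleic acid. The product of fat-2 turns oleic into linoleic acid, those of fat-3 and fat-4 act in succession on the way to arachidonic and eicosapentaenoic acid, and that of fat-1 is the omega-3 desaturase. Several of these genes are known to be active in the intestine, where GATA-family zinc finger factors such as ELT-2 drive many genes.

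A region was counted for a gene when its summit lay in the gene body or within 2000 bp of the start of any annotated protein-coding transcript. By this rule 4 of the 7 genes, fat-2, fat-3, fat-4 and fat-6, had a region in the list that the authors thresholded by irreproducible discovery rate (IDR). This is a description and not a test, since the genes were chosen with this list known. Over the 19973 nuclear protein-coding genes the share was 1.71%. In the pooled list before thresholding, 5 of the 7 had a region, fat-1 in addition to those 4, against 40.1% of all genes. In the replicate 1 list 5 of the 7 had one, against 70.7%, and in the replicate 2 list all 7, against 65.5%, so that presence in a replicate list says little. The genes had search windows of 4001 to 6699 bp, and the median window of all nuclear genes was 4175 bp.

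The lists held 28183 regions for replicate 1, 23975 for replicate 2, 11633 pooled and 328 thresholded. The pooled list is labelled as peaks and background, the input for IDR, so a region in it below the threshold may be background. The members had 21, 15, 11 and 4 distinct regions in them; of the 4 thresholded ones, 2 counted for fat-4, and 1 of these also for fat-3. Each region carried the authors' signal, a value with no stated scale that cannot be compared between lists, and was therefore also given its rank by signal within its list. Since the lists carry no numbers of reads, depth is unknown, and no interval can be put on the signal of a region. The lowest signal in the thresholded list was 38.2.

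The sequences below show the 201 bases centred on the summit of each of the 4 thresholded regions and of the leading fat-1 region, because they hold the GATA sites described further on. All are on the plus strand of ce11, read 5′ to 3′ from the RefSeq genome of that build. Capitals mark 6-base GATA sites on either strand, namely AGATAA or its variant AGATAG, and the form TGATAA or its variant TGATAG. The windows are chrIV:9801565-9801765 in an intron of fat-4, chrIV:13327189-13327389 downstream of fat-2, chrIV:9797746-9797946 upstream of fat-4, chrIV:11914880-11915080 in fat-6, and chrIV:13314315-13314515 upstream of fat-1. The fat-6 window has its summit in an intron and also holds 22 coding bases.
fat-4 intron: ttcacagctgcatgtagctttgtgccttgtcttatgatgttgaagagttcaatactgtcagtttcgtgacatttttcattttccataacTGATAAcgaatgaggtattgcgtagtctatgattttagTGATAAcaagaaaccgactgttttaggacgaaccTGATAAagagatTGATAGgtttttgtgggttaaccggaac
fat-2 downstream: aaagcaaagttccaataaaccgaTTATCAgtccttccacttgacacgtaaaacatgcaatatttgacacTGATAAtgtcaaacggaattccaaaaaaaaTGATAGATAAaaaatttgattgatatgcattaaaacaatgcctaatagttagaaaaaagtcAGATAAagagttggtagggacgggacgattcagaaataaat
fat-4 upstream: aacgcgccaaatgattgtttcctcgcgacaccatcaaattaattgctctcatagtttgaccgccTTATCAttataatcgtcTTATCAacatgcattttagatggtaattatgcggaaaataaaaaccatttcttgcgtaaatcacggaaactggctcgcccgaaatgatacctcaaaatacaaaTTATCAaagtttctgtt
fat-6 intron: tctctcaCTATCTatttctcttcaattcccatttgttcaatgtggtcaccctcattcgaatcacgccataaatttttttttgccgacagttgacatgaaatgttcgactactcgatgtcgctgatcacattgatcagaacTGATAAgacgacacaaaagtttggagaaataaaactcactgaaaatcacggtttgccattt
fat-1 upstream: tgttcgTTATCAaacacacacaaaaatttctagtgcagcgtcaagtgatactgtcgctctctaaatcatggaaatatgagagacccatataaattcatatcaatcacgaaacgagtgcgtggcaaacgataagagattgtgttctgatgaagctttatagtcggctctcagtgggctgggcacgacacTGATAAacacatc

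The strongest desaturase region lay inside fat-4, on the side facing fat-3. It ran from 9801505 to 9801824 on chromosome IV with its summit at 9801665, in an intron of fat-4 (WBGene00001396, 9799429 to 9802226, plus strand). Its signal was 78.4 in the pooled list, where it ranked 47 of all regions and 22 of the nuclear ones. In replicate 1 the overlapping region had a signal of 28.3 and rank 63, and in replicate 2 a signal of 44.1 and rank 64. The summits of the pooled list and both replicates fell at 9801665, 9801670 and 9801664, so that both libraries placed it at nearly the same base and among their leading regions.

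Which of the 2 genes the region was closer to depended on what was taken as the start of fat-4. Its summit lay 2236 bp downstream of the 5′ end of fat-4 and 1358 bp upstream of the 5′ end of fat-3 (WBGene00001395, 9803023 to 9806119, plus strand), so by 5′ ends it was closer to fat-3. By annotated transcript starts it was closest to fat-4, 240 bp upstream of a short model of that gene. That model has no annotated 5′ untranslated region, and its listed start is its first coding base. Of the 15 transcripts annotated for the 7 genes, 8 had no 5′ untranslated region. The genes fat-4 and fat-3 follow each other on the same strand with 796 bp between them.

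At the fat-3 promoter itself the lists held only a much weaker region. A pooled region from 9802823 to 9803142 had its summit 40 bp upstream of the 5′ end of fat-3, a signal of 25.3 and rank 1107, below the threshold. The authors' -log10 q for this region was 0.529 in the pooled list, where the highest was 1.35, so it may be background. The value was 0.216 in replicate 1 and 1.13 in replicate 2. It ranked 607 in replicate 2, with a signal of 21.4, and 10407 in replicate 1, with a signal of 6.80. The libraries thus placed it very differently, and its summits in them were 108 bp (replicate 1) and 87 bp (replicate 2) upstream. A further region lay in an intron of fat-3, 584 bp downstream of its 5′ end, with a signal of 20.3 and rank 2532. Its ranks were 6249 for replicate 1 and 5411 for replicate 2, which is 22.2% and 22.6% of the way down these lists.

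Upstream of fat-4 lay the second thresholded region of this locus, from 9797686 to 9798005 with its summit at 9797846 and a pooled signal of 48.2, rank 183. Replicate 1 gave it a signal of 22.2 and rank 127, and replicate 2 a signal of 24.6 and rank 391. It was among the first 328 regions of replicate 1 and below the first 328 of replicate 2. The summit was 1583 bp upstream of fat-4 and only 492 bp from the 5′ end of T13F2.2, which is transcribed in the opposite direction, so it was closer to that neighbour. A pooled region nearer the 5′ end of fat-4, 354 bp upstream, had a signal of 16.2 and rank 6116.

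**Figure D1:**
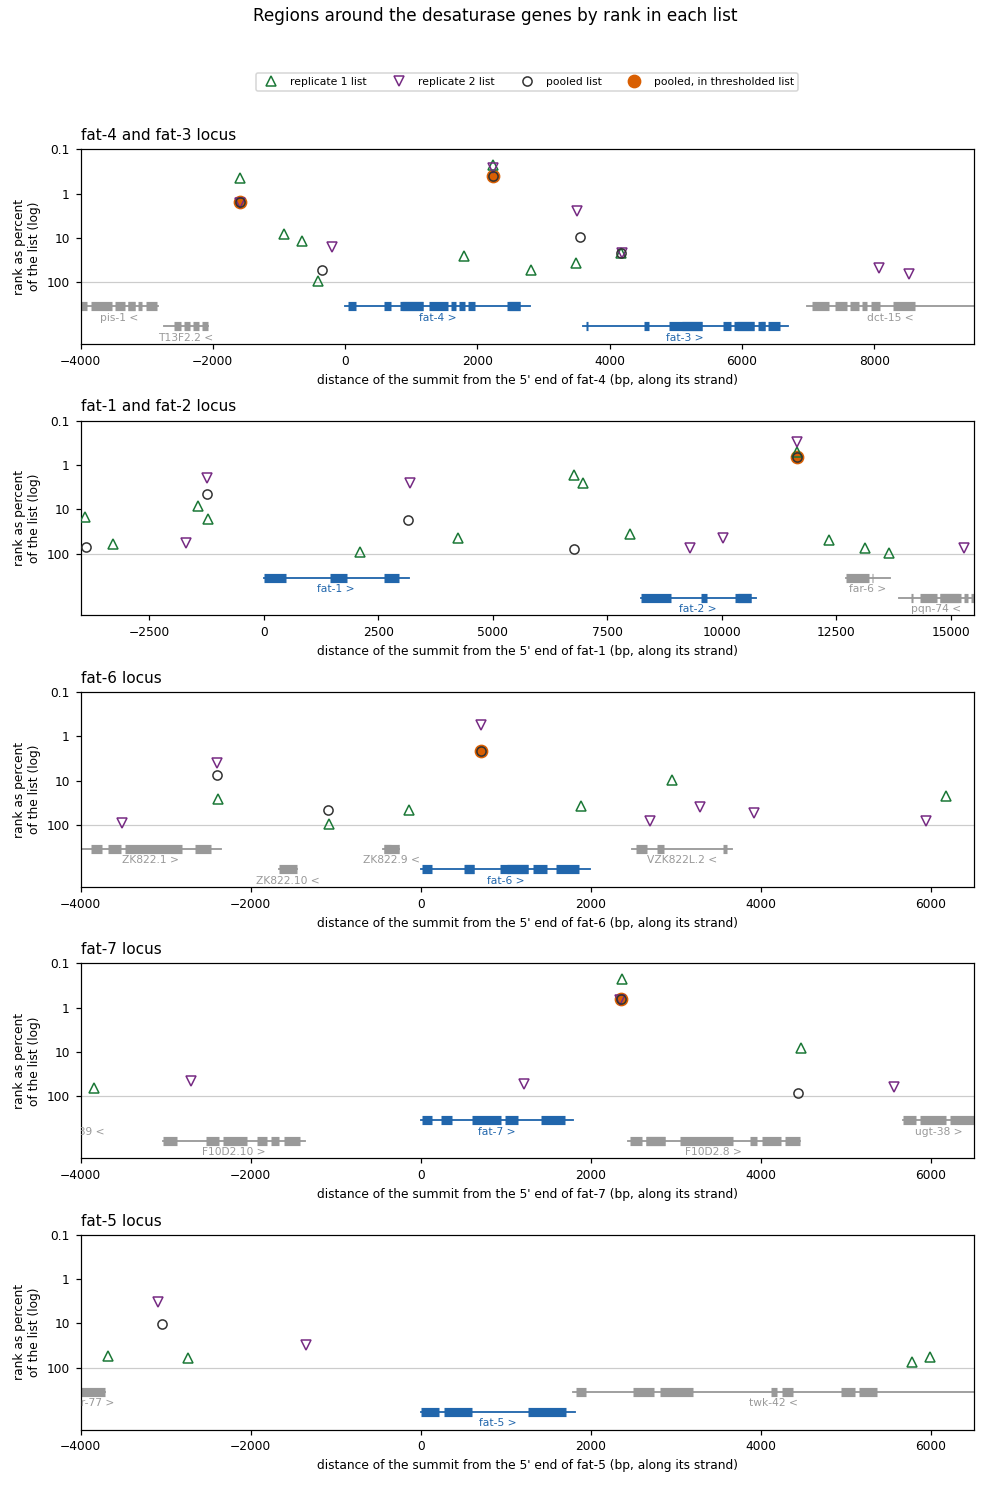
Regions around the 7 genes in 5 panels. The horizontal axis is the distance of each summit from the 5′ end of the first gene named, in bp along its strand, and the vertical axis is the rank as percent of the list on a log scale with the strongest at the top; triangles are replicate lists, open circles the pooled list and filled circles thresholded regions, and thick bars below mark coding exons, blue for the desaturases and grey for other genes. The filled circles lie in introns of fat-4 and fat-6 and between genes, 2236 and 707 bp from the 5′ ends of fat-4 and fat-6, and 1 lies between fat-7 and F10D2.8.

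The gene fat-2 had a thresholded region behind its 3′ end and not at its promoter. The region ran from 13327129 to 13327448 on chromosome IV, with a pooled signal of 64.4 and rank 76. In replicate 1 it had a signal of 21.2 and rank 146, and in replicate 2 a signal of 41.9 and rank 74, with summits 2 bp apart. It was thus a leading region of both libraries. Its summit lay 3416 bp downstream of the 5′ end of fat-2 (WBGene00001394, 13323873 to 13326395, plus strand), 894 bp past the end of the gene and 1070 bp upstream of far-6, a gene of the fatty acid and retinol binding protein family, so by 5′ ends it was closer to far-6. It counted for fat-2 only because of a short model of that gene that starts at a coding base.

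Upstream of fat-2 the libraries differed. Replicate 1 had a pair of regions there, 1459 and 1253 bp upstream of the 5′ end, with signals of 15.1 and 13.6 and ranks 466 and 717. Replicate 2 had no region overlapping the pooled one at this place, which had a signal of 14.5 and rank 9123. A weaker replicate 1 region lay 225 bp upstream (signal 6.85, rank 10222).

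The gene fat-1, which precedes fat-2 on the same strand at a distance of 5061 bp, had no thresholded region. Its leading pooled region, from 13314255 to 13314574, lay 1229 bp upstream of the 5′ end (WBGene00001393, 13315644 to 13318811), with a signal of 32.2 and rank 527. That was the desaturase region next below the threshold, as the fat-6 region at rank 253 was the next above it. Replicate 2 gave it a signal of 23.3 and rank 465, and replicate 1 had a pair of overlapping regions with signals of 10.3 and 8.75 at ranks 2392 and 4587. A further pooled region sat at the 3′ end of fat-1, with a signal of 21.4 and rank 2013. Its counterpart in replicate 2 ranked 612 with a summit 21 bp past the gene's end, and no replicate 1 region overlapped it on ce11, while on ce10 one of rank 24807 did.

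The thresholded region in fat-6 was listed for 1 of the 2 replicates only. It ran from 11914820 to 11915139 on chromosome IV. Its summit lay in an intron of fat-6 (WBGene00001398, 11913692 to 11915687, minus strand), 707 bp downstream of the 5′ end. The pooled signal of the region was 42.2, at rank 253. Replicate 2 had it at the same summit with a signal of 34.0 and rank 131, while no replicate 1 region overlapped it. Of the 328 thresholded regions 4 had no overlapping region in replicate 1, or 1.22%, and the fat-6 region was 1 of them. The nearest replicate 1 summits lay 840 bp to its right (signal 6.22, rank 13257), which is 133 bp upstream of the 5′ end of fat-6 and 127 bp from that of ZK822.9, and 1182 bp to its left (signal 6.83, rank 10310). On the ce10 build the matching pooled region again had rank 253 and no overlapping region in replicate 1, and ranked 170 in replicate 2. The weaker pooled region upstream of fat-6 (signal 16.9, rank 5254) was nearer to ZK822.10 than to fat-6.

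**Figure D2:**
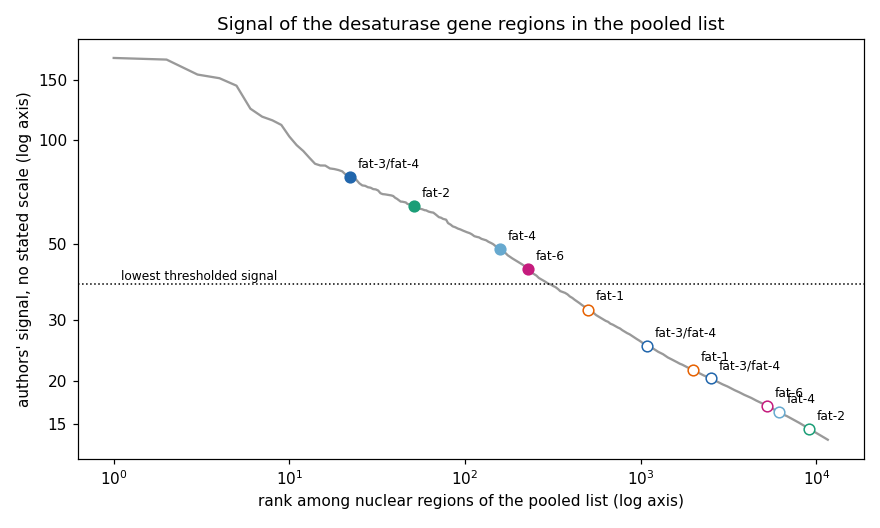
Signal of the 11 pooled desaturase regions (vertical axis, the authors' signal with no stated scale, log) against rank among nuclear regions of the pooled list (horizontal axis, log); the grey line is the list and filled circles are thresholded. The 4 filled circles lie at nuclear ranks 22, 51, 158 and 228, above the lowest thresholded signal of 38.2, and the fat-1 region at 32.2 is the next below it.

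The paralogues of fat-6 had no such region. The coding sequences of fat-6 and fat-7 were identical at 84.6% of 1013 aligned bases, the closest pair of the 7, and the other pairs lay between 59.8% and 67.2%. All 285 stretches of 36 bases in the fat-6 region occurred once in the genome, and so did those of the other 4 regions whose sequences are shown; the read length was not given in the sources used here. In fat-7 (WBGene00001399, chromosome V, 7151353 to 7153146, minus strand) replicate 2 alone had a region, in an intron, with a signal of 9.37 and rank 12402. For fat-5 (WBGene00001397, chromosome V, 17725004 to 17726818, plus strand) replicate 2 alone had a region too, 1352 bp upstream, with a signal of 11.04 and rank 7348. They stood 51.7% (fat-7) and 30.6% (fat-5) of the way down that list. Both had small -log10 q values from the authors, 0.063 (fat-7) and 0.121 (fat-5), and may be background.

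The distance rule decided the standing of fat-7. A thresholded region from 7150635 to 7150954 lay 558 bp past the 3′ end of fat-7 and 2351 bp from its 5′ end, just outside the rule. Its pooled signal was 65.4, at rank 72, with rank 62 in replicate 1 and 160 in replicate 2. It sat 81 bp upstream of the 5′ end of the next gene, F10D2.8, which runs in the same direction. For fat-5 the nearest pooled region was 3037 bp upstream (signal 24.9, rank 1192) and the nearest thresholded one 10467 bp upstream.

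**Figure D3:**
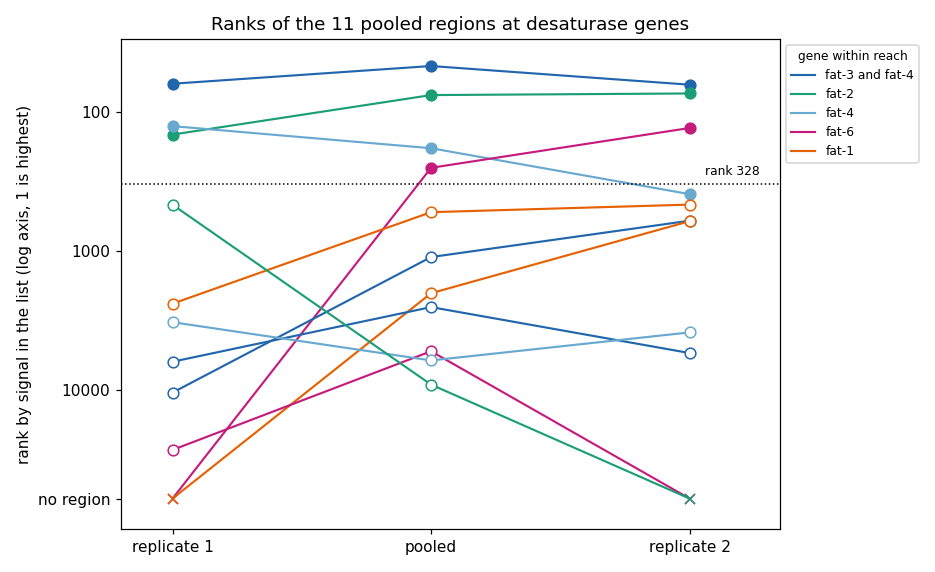
Rank by signal (vertical axis, log, 1 is highest) of the 11 pooled regions in the replicate 1, pooled and replicate 2 lists. Lines join overlapping regions, filled circles are thresholded, and crosses mark a list with no overlapping region. Where several regions of a replicate overlap, the one of highest signal is drawn. For the fat-4 region of pooled rank 6116 this is rank 3250 in replicate 1, where another overlapping region ranks 26282. The lines of the fat-4 intron region and the fat-2 region stay above rank 328 in all 3 lists, while that of fat-6 has no region in replicate 1.

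Across the members, 7 of the 11 pooled regions were overlapped by at least 1 bp in both replicate lists, against 53.7% of all pooled regions. The 4 that were not were the fat-6 intron region, the 3′ region of fat-1, the region upstream of fat-2 and the one upstream of fat-6. The latter had a replicate 1 region of rank 26853 and none in replicate 2 on ce11, while its match on ce10 had none in replicate 1 and one of rank 18045 in replicate 2. Only the fat-4 intron region and the fat-2 region ranked within the first 328 of both replicates, which 45.5% of the 303 nuclear thresholded regions did.

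None of the 4 thresholded summits lay at the 5′ end of a desaturase gene, the closest being 707 bp away, in fat-6. By annotated transcript starts the fat-6 summit was 187 bp from the start of another model of that gene, which has no annotated 5′ untranslated region. Introns held 2 of the 4, those in fat-4 and fat-6, against 25.1% of the nuclear thresholded regions, and the other 2 were intergenic.

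All 4 thresholded desaturase regions had a GATA site within 50 bp of the summit, as did 88.8% of the nuclear thresholded regions. The share was near that background and is no feature of the desaturases. The regions differed in how the sites were arranged, as the capitals in the sequences show. In the fat-4 intron region all 4 sites of the printed window were on the plus strand, and those nearest the summit began 11 bp before it and 27 bp after it. The fat-2 region had 3 sites within 50 bp, against 3 or more in 33.3% of the nuclear thresholded regions, and 5 in the window. One pair of them overlapped, since a TGATAG and an AGATAA share bases beside the summit, at -1 and 3 bp.

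The upstream fat-4 region had 2 sites within 50 bp, both in the minus-strand orientation and both part of the longer element CTTATCA, the reverse complement of TGATAAG. They began 36 and 19 bp before the summit. The fat-6 region had a single site within 50 bp, 40 bp after the summit, also within a TGATAAG. The 7-base element was thus found in 2 of the 4, and in 53.5% of nuclear thresholded regions, but near neither the fat-4 intron summit nor that of fat-2.

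Sites were also counted below the threshold. In all, 6 of the 11 pooled desaturase regions had a site within 50 bp, against 32% of the nuclear pooled regions, and the 4 thresholded ones made up most of them. The leading fat-1 region, at rank 527, had none within 50 bp, where 73.5% of its 200 neighbours in rank had one, although its window held sites beginning 94 bp before and 88 bp after the summit. The region at the fat-3 promoter had 1 site, and the region at the 3′ end of fat-1 had 2. No other desaturase region below the threshold had one within 50 bp, which leaves their share near that of all pooled regions. The count depends on the window, since within 100 bp 10 of the 11 had a site, against 47.5% of the nuclear pooled regions. In the replicate lists 8 of 21 member regions of replicate 1 had a site, against 25%, and 6 of 15 of replicate 2, against 26.9%. Both counts include the replicate regions that overlap the thresholded ones, all of which had a site, so they do not describe the weaker regions alone.

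**Figure D4:**
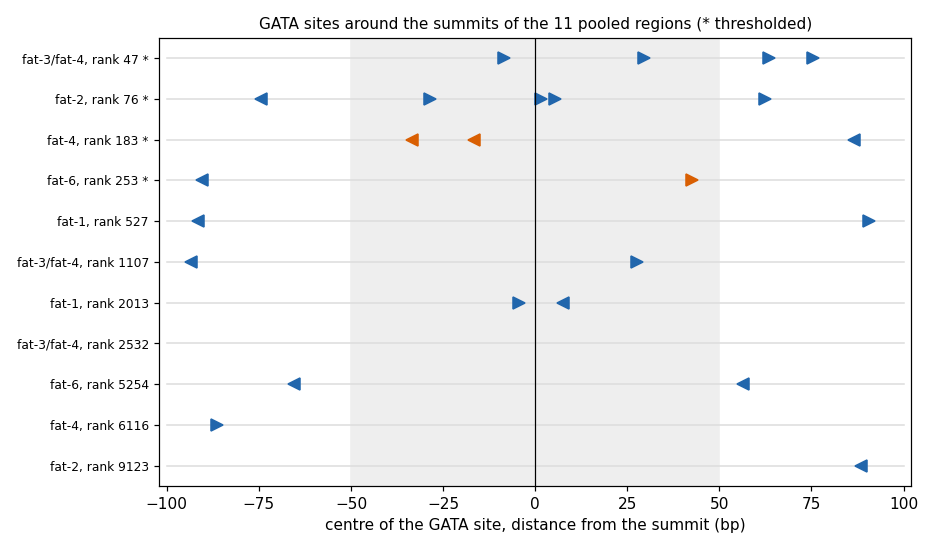
GATA sites around the summits of the 11 pooled regions, ordered by rank with the thresholded ones starred. The horizontal axis is the distance of the site's centre from the summit in bp, arrowheads give the strand, orange marks sites within TGATAAG, and the grey band is the 50 bp to either side; each of the 4 starred regions has a site in the band and the fat-1 region of rank 527 has none.

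The promoter windows of the 7 genes were searched separately for GATA sites. In the 250 bp before to 50 bp after the 5′ end, the 6-base sites numbered 2 in fat-3, 1 in fat-1 and 1 in fat-2, and 0 in fat-4, fat-5, fat-6 and fat-7, so that 3 of 7 had one. Of all nuclear protein-coding genes, 54.6% had a site in this window. With only 7 genes, the count is not read as different from that share. The thresholded regions of fat-4 and fat-6 had sites and the promoter windows of these genes held none, but the absence of these letters says nothing on whether a factor binds there.

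Other genes of fatty acid and phospholipid metabolism, together with regulator genes, were looked up by the same rule. The list of 41 annotated genes was also drawn up with results of these data known. The search windows of these genes are not given here, and a longer window can catch more regions. A thresholded region was found for 4 of the 41 (9.76%, against 1.71% of all genes), and a pooled region for 31, against 40.1%. They belonged to different steps. The fatty acid synthase gene fasn-1 had the highest, with a signal of 66.3 at rank 69 in an intron 439 bp downstream of its 5′ end, ranked 276 in replicate 1 and 47 in replicate 2, and without a GATA site within 50 bp. The nuclear receptor gene nhr-80, a known regulator of the stearoyl-CoA desaturase genes, had a region of signal 51.4 and rank 154, ranked 183 and 221 in replicates 1 and 2. It lay 555 bp upstream of nhr-80 and 348 bp from H10E21.1, which was closer.

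The S-adenosylmethionine synthetase gene sams-1, which serves phosphatidylcholine synthesis, had an intronic region of signal 41.4 and rank 263, with 4 GATA sites within 50 bp. It ranked 695 in replicate 1 and 226 in replicate 2. The elongase gene elo-1, which lengthens polyunsaturated fatty acids, had a region 298 bp upstream of its 5′ end with a signal of 38.6 at rank 317, close to the threshold. It ranked 505 in replicate 1 and 262 in replicate 2. By role, a thresholded region was found for 1 of 2 genes of fatty acid synthesis, 1 of 12 of elongation, 1 of 13 regulators, 1 of 5 of phosphatidylcholine and methyl donor synthesis, 0 of 3 electron donors and 0 of 6 of acyl-CoA synthesis and oxidation. The intestinal GATA factor gene elt-2 had a pooled region of signal 37.7 at rank 342, just under the threshold. It ranked 996 in replicate 1 and 315 in replicate 2. The GATA factor gene elt-7, also in the list, had a pooled region of signal 13.9 at rank 10549, far below the threshold.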

How the data were processed

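ChIP-seq of eGFP-tagged tlp-1 was carried out in 2 biological replicates of whole L1 larvae, and per the labels the size range was 150 to 350 bp. Region lists on both builds, ce10 and ce11, were deposited; the deposited file descriptions derive them from the libraries' alignments and a further file that is not described. Each region has a signal value and a -log10 q value from the authors. The deposited -log10 q reached 1.35 in the pooled list and was not used for ordering, since 233 thresholded regions shared that value. Which aligner, caller and IDR cutoff were used is not given in the sources used here. No control was analysed here.

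Regions of the ce11 lists were placed by their summits on the protein-coding genes of Ensembl release 115 (WBcel235, which is ce11). Ranks are by signal. Sequence came from the RefSeq genome of the same build, and the 6-base and 7-base GATA elements were searched on both strands. Python 3.11.15, pandas 2.3.3 and biopython 1.88 were used, and gene assignment, overlap and site search were checked on planted regions. The members, the pathway list and the rules were chosen with earlier results of these data known. No test was run: the series has 1 group. All 7 members were named. Of the pathway list those with a thresholded region were named, and elt-2 and elt-7 were added after their values were seen. The name lpd-1 matched no annotated gene. Alternatives were other distances, gene 5′ ends alone, stricter thresholds and overlaps, single replicates, other site windows and the ce10 lists. The latter were matched by chromosome, width, summit offset, signal within 1% and order along the chromosome within 5 places; the first 4 criteria alone gave 1 candidate each for the 4 thresholded regions and several for the others.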

Additional observations from a re-analysis of the deposited data

How the results depend on the processing

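With transcript starts extended by 1000 bp in place of 2000 bp, 2 of the 7 genes had a thresholded region, fat-4 and fat-6, against 1.26% of all genes; with 5000 bp there were 5, fat-7 being added, against 3.41%. Counting only the 5′ end of each gene gave 3, without fat-2 (1.68% of all genes), and the upper 164 thresholded regions gave 3, without fat-6 (0.836%). The first 328 regions of replicate 2 alone gave the same 4 genes (1.75% of all genes), and those of replicate 1 alone gave 3, without fat-6 (1.72%). In the pooled list 4 of the 7 genes had a region at 1000 bp, 5 by 5′ ends and 7 at 5000 bp, against 31.4%, 39.8% and 62.8% of all genes. The whole list of replicate 1 gave 5 and that of replicate 2 gave 7, against 70.7% and 65.5%. A reciprocal overlap of 50% kept the count of pooled regions found in both replicates at 7, and summits within 100 bp gave 6. Of the 11 pooled regions, 6 had a GATA site within 50 bp, 4 within 25 bp, 10 within 100 bp and 10 over the whole region; of all nuclear pooled regions 32%, 19.2%, 47.5% and 60.5% did. All 11 had a counterpart on ce10, found with the help of list order for the 7 regions below the threshold. Replicate 2 alone lists the fat-6 region. No paired analysis was possible because the series has 1 group. The lists give no depth, so a gene without a region is below the reach of the list and not shown to be unbound.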
